A study of Homo sapiens with 12 samples.

Results

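The genes described here carry the interferon signal from the cell surface to the nucleus: the type I interferon receptor chains IFNAR1 and IFNAR2, the kinases JAK1 and TYK2, the transcription factors STAT2, IRF1 and IRF7, and the feedback inhibitor SOCS1. They were chosen by name as 9 gene symbols, with earlier results of these data known. Counts of these genes set beside shares of all genes are therefore descriptions and no test. Of the 9 symbols, 8 have a row among the 13937 genes of the expression table. IRF9, the ninth, is not analysed here. Their levels were followed in 12 libraries of WI-38, a fibroblast line from human embryonic lung, into which small interfering RNAs (siRNAs) had been transfected. The 6 groups hold 2 libraries each. In the cGAS_YT group siRNAs against cGAS, a sensor of DNA in the cytosol, were given together with siRNAs against YAP and TAZ, the coactivators at the end of the Hippo pathway. The STING_YT group received siRNAs against STING, the adaptor that acts after cGAS, together with the YAP and TAZ siRNAs. In the YT, cGAS and STING groups, siRNAs against YAP and TAZ, against cGAS or against STING were combined with the control siRNA, and the control group received the control siRNA alone. All groups, control included, were therefore transfected.

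In textbook accounts, a type I interferon binds the receptor pair IFNAR1 and IFNAR2, whose cytoplasmic tails hold the kinases TYK2 and JAK1. The activated kinases phosphorylate STAT proteins such as STAT2, which enters the complex ISGF3 with IRF9 and switches on genes with an interferon-stimulated response element (ISRE). IRF7, itself induced by interferon, drives further interferon production after sensors such as cGAS and STING are triggered, IRF1 is induced mainly by interferon gamma and also by NF-kB, and SOCS1 binds the kinases and shuts the pathway down.

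The libraries held between 17790774 and 20650727 reads. Sequencing was from the 3' end, so a transcript gives about 1 fragment whatever its length. The values are CPM (reads of a gene scaled to the size of the library, here with TMM factors). They can be compared between groups and, less surely where another gene covers the 3' end, between genes. The targeted transcripts were low where the labels name them: YAP1 averaged 14.6 CPM in the YT group and 109 CPM in control, WWTR1 (which encodes TAZ) 19.8 CPM in the YT group and 139 CPM in control, MB21D1 (cGAS) 1.85 CPM in the cGAS group and 7.87 CPM in control, and TMEM173 (STING) 1.78 CPM in the STING group and 24.1 CPM in control. In cGAS_YT, YAP1 averaged 23.1 CPM, WWTR1 18.3 CPM and MB21D1 1.47 CPM. In STING_YT, YAP1 averaged 14.3 CPM, WWTR1 12.1 CPM and TMEM173 1.60 CPM. Without YAP and TAZ siRNAs, WWTR1 stood at 95.6 CPM in the cGAS and 100 CPM in the STING group, and YAP1 at 93.3 and 88.4 CPM. The labels do not say whether the 2 libraries of a group were grown as separate cultures, and the p-values therefore reflect the spread between libraries, which may be only technical. All 9 fibroblast markers on the list were measured, with summed levels from 22495 to 36526 CPM. Of 11 leukocyte markers only CD14 and CD68 had values, at 3.83 to 6.56 CPM in sum, and of 7 epithelial markers 4 keratins did, at 24.9 to 58.4 CPM in sum. The endothelial list had a value for TEK alone of 6 markers, and the 4 markers of plasmacytoid dendritic cells had none. Some of these moved with the groups. The fibroblast markers summed to 26565 and 28216 CPM in YT libraries, 22556 and 23532 CPM in cGAS libraries and 32652 and 33176 CPM in control libraries. COL1A1 made up the larger part of each sum (15680 CPM in YT, 10248 CPM in cGAS and 18185 CPM in control on average), and the median log2 change of the 9 markers was -0.07 in YT (0 higher, 1 lower) and -0.01 in cGAS (1 higher, 3 lower). The keratins summed to 28.4 and 35.1 CPM in YT, 33.9 and 37.9 CPM in cGAS and 49.8 and 58.4 CPM in control libraries, with 3 of 4 lower in YT and 2 of 4 lower in cGAS. Of 13 mitochondrially encoded transcripts, 5 rose in cGAS and 5 in STING against control and 8 in STING_YT against YT, and their sum was 14997 and 23392 CPM in the 2 control libraries themselves. TEK stood at 108 and 115 CPM in YT libraries and 68.7 and 71.7 CPM in control libraries. Their part in the results below was not tested. In bulk RNA, fewer cells expressing a gene and less RNA per cell cannot be told apart.

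Differences were tested with limma on values of log2(CPM + 1), and p-values were adjusted by Benjamini-Hochberg over 13894 genes, with a threshold of 0.05. A change is given as the log2 difference ± SE between groups of 2 libraries, and on this scale the change of a weakly expressed gene is understated. The SE of a gene rests on 1 spread shared by all 6 groups, so it is the same in every comparison of 2 groups. It does not follow the replicates compared, which had 249 genes more than 2-fold apart in YT and 25 in STING_YT. A gene "rose" or "fell" only where its change passed the limma test. Whether groups of 2 libraries overlapped is a description and no test. STAT2 and TYK2, for instance, did not overlap between YT and control and were not called there. The share of all genes without overlap was not counted.

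The YAP and TAZ siRNAs alone moved most of these genes. In YT against control, IFNAR1, IFNAR2, JAK1, IRF1 and IRF7 rose and SOCS1 fell, which is 6 of 8 genes called. Over all genes 41.6% were called in this comparison, 20.6% higher and 20.9% lower. The median log2 change of the 8 genes was 0.54. The median over all genes tested lay between -0.02 and 0.03 in each of the 10 comparisons made. The cGAS siRNAs gave another pattern, with STAT2 and IRF7 higher and IRF1 and IFNAR1 lower than in control, 4 of 8 called against 25.4% of all genes (11.1% higher and 14.3% lower). Without control replicate 2 or cGAS replicate 7 this count was 2, and with any of the 4 libraries left out 2050 to 2741 genes were called in place of 3528. The STING siRNAs lowered IRF1, JAK1 and IFNAR2 and raised none of the 8, so 3 were called against 15% of all genes, with 6.14% higher and 8.86% lower. Where none of the 8 was called in a direction, in this comparison and in those that follow, edgeR and DESeq2 called none there either, and 0 reached an unadjusted p under 0.05 in limma.

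**Figure D1:**
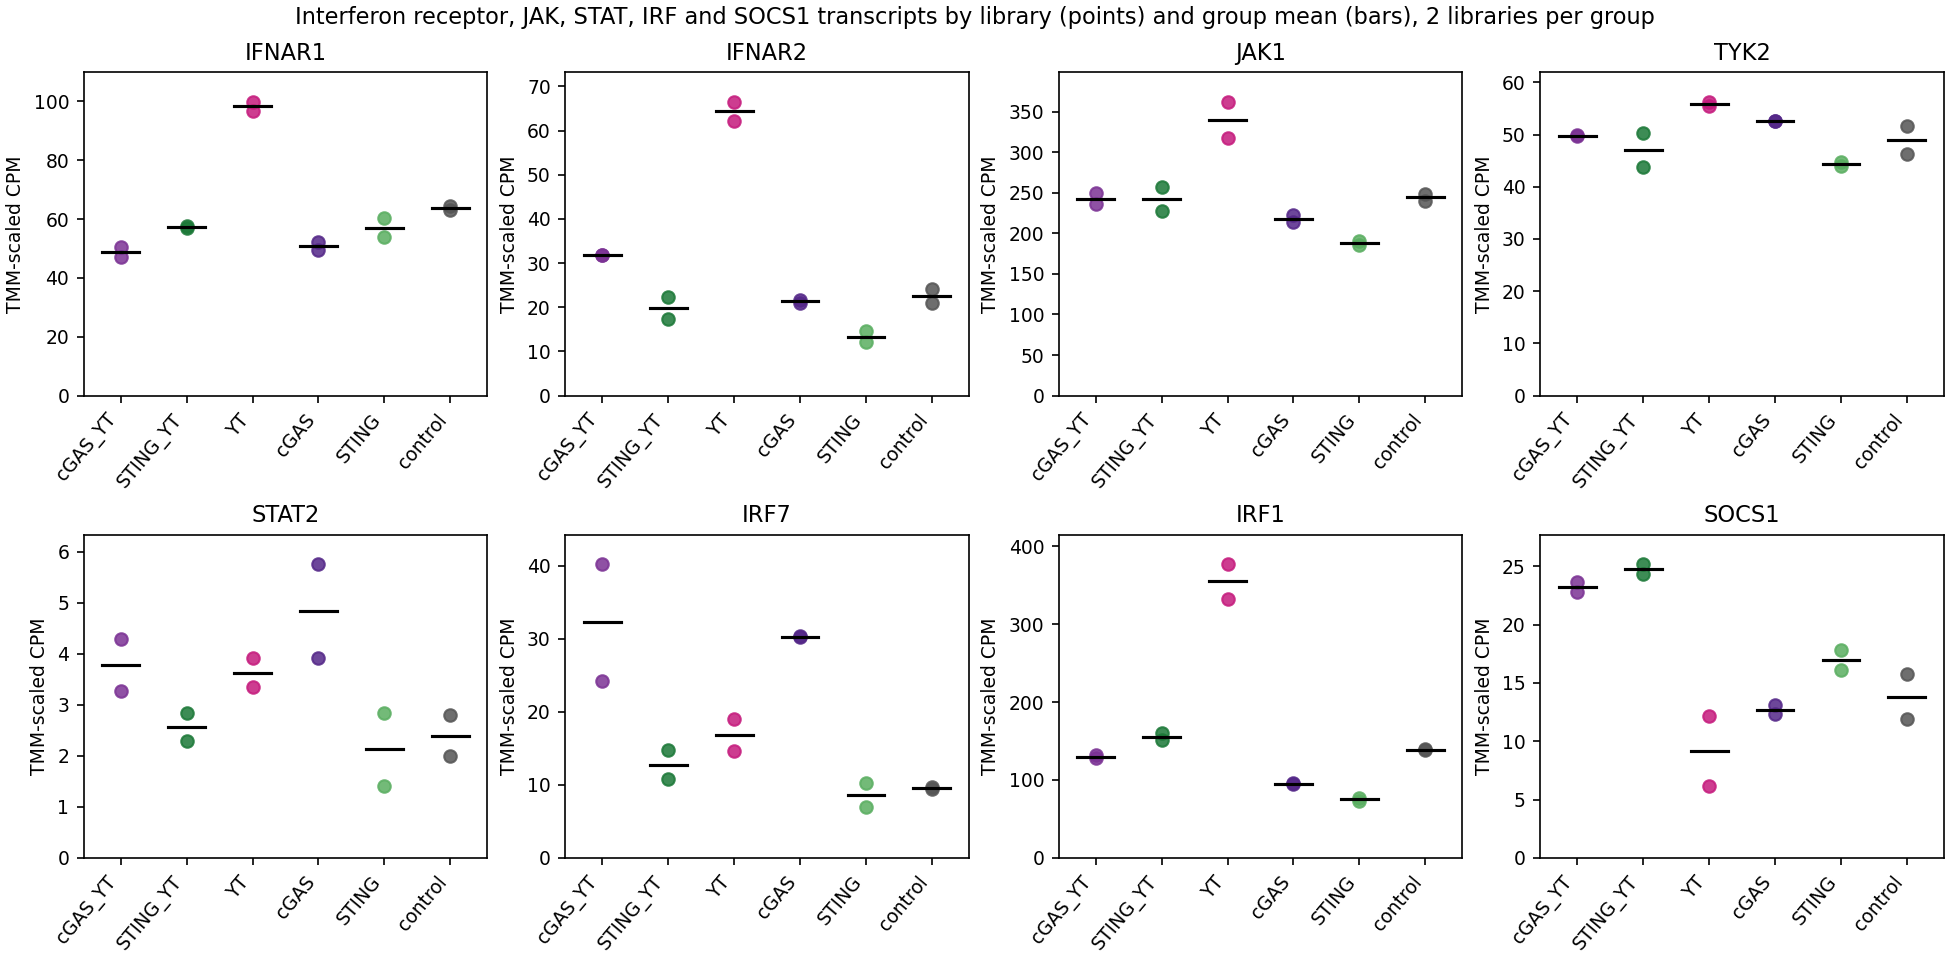
TMM-scaled CPM of the 8 genes in each library (points, 2 per group) with the group mean (bar), in separate panels with a linear axis from 0. IFNAR1, IFNAR2, JAK1 and IRF1 stand highest in the YT group, IRF7 highest in the 2 groups with cGAS siRNAs, and SOCS1 highest in cGAS_YT and STING_YT.

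IFNAR2 (chromosome 21, 33229901 to 33265675, plus strand, GRCh38) is the receptor chain that binds interferon with high affinity. It varied most of the 8 genes by a narrow margin, with 4.83-fold between its highest and lowest group means, beside 4.72-fold for IRF1. It stood at 66.6 and 62.2 CPM in the YT libraries, against 24.1 and 21.0 CPM in control libraries. Both YT libraries lay far above every other library. The rise was 1.48 ± 0.14 (adjusted p = 2.62e-07). With cGAS siRNAs present, IFNAR2 measured 31.8 and 32.0 CPM in cGAS_YT and 21.7 and 21.1 CPM in cGAS libraries, a smaller rise of 0.56 ± 0.14 (adjusted p = 0.0056). With STING siRNAs present it measured 17.3 and 22.4 CPM in STING_YT and 14.5 and 12.1 CPM in STING libraries. The groups did not overlap, and the rise of 0.53 ± 0.14 passed the test (adjusted p = 0.00502). That call was lost without STING replicate 14 (0.41, adjusted p = 0.0727) and without STING_YT replicate 16 (0.36, adjusted p = 0.101), and over all alternatives its adjusted p lay between 0.00212 and 0.101. The STING siRNAs alone lowered IFNAR2 relative to control (-0.72 ± 0.14, adjusted p = 0.00186), while in the cGAS group it did not differ from control beyond the spread (-0.07 ± 0.14, adjusted p = 0.749). The order of the group means was YT, cGAS_YT, control, cGAS, STING_YT and STING, and of the neighbours in that order control overlapped with cGAS and cGAS with STING_YT, while the other pairs did not overlap. GENCODE release 29 places a readthrough gene, AP000295.1, on the same strand over the 3' end of IFNAR2, and reads of that gene and of IFNAR2 cannot be told apart.

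IFNAR1 (chromosome 21, 33324477 to 33359862, plus strand), the other receptor chain, had the higher CPM of the pair in 12 of 12 libraries. The part of AP000295.1, which covers the 3' end of IFNAR2, in this order was not tested. IFNAR1 measured 96.7 and 99.9 CPM in the YT libraries, against 64.6 and 63.1 CPM in control libraries, a rise of 0.61 ± 0.09 (adjusted p = 4.86e-05). With cGAS or STING siRNAs present no such change was called. IFNAR1 stood at 47.1 and 50.6 CPM in cGAS_YT and at 52.1 and 49.5 CPM in cGAS libraries (-0.06 ± 0.09, adjusted p = 0.694), and at 57.1 and 57.6 CPM in STING_YT and 60.5 and 53.8 CPM in STING libraries (0.01 ± 0.09, adjusted p = 0.959). In both pairs the libraries overlapped. The cGAS siRNAs alone gave a small decrease from control (-0.32 ± 0.09, adjusted p = 0.0151) with groups that did not overlap. This call did not survive the loss of any of the 4 libraries: the change was -0.31 without control replicate 1 (adjusted p = 0.0707), -0.34 without control replicate 2 (0.0542), -0.36 when cGAS replicate 7 was left out (0.0535) and -0.29 when cGAS replicate 8 was (0.114), and the adjusted p was 0.00636 to 0.114 over all alternatives. In the STING group IFNAR1 was not called against control (-0.16 ± 0.09, adjusted p = 0.273).

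JAK1 (chromosome 1, 64833229 to 64966504, minus strand), the kinase held by IFNAR2 and shared with many cytokine receptors, was the most abundant of the 8 genes in 11 of 12 libraries, and IRF1 was in the other. Its level was 362 and 318 CPM in the YT libraries and 249 and 240 CPM in control libraries. The groups did not overlap, and the rise was 0.47 ± 0.09 (adjusted p = 0.000337). In STING_YT libraries it stood at 228 and 257 CPM, against 191 and 185 CPM in STING libraries, a rise of 0.36 ± 0.09 (adjusted p = 0.00325). In cGAS_YT libraries it stood at 236 and 250 CPM, against 213 and 222 CPM in cGAS libraries, and this difference was not called (0.15 ± 0.09, adjusted p = 0.21). The STING siRNAs alone lowered JAK1 relative to control (-0.37 ± 0.09, adjusted p = 0.00743), and the cGAS siRNAs alone gave no call (-0.16 ± 0.09, adjusted p = 0.182). Single libraries decided some of these calls. The STING_YT call was lost without STING_YT replicate 16 (0.27, adjusted p = 0.0678; 8.87e-05 to 0.0678 over all alternatives). The STING call was lost without control replicate 1 (-0.35, adjusted p = 0.0623), without STING replicate 14 (-0.35, adjusted p = 0.0788) and with a constant prior variance (adjusted p = 0.051), with a range of 0.00177 to 0.0788. The gene RAVER2 lies over the 3' end of JAK1 on the other strand, at group means of 1.96 to 7.88 CPM.

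TYK2 (chromosome 19, 10350529 to 10380676, minus strand), the kinase held by IFNAR1, was the steadiest of the 8, with 1.26-fold between its highest and lowest group means. It measured 55.4 and 56.3 CPM in YT libraries and 46.3 and 51.6 CPM in control libraries, and the difference of 0.19 ± 0.10 was not called (adjusted p = 0.137). None of the other 9 comparisons called it either, at changes from -0.26 to 0.24. Under alternatives it was called in STING_YT against YT without STING_YT replicate 16 (-0.34, adjusted p = 0.0485, against 0.0611 with all libraries and up to 0.401 over the alternatives), and in cGAS against STING in a fit of those 2 groups alone (adjusted p = 0.0143; range 0.0143 to 0.219).

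STAT2 (chromosome 12, 56341597 to 56360155, minus strand), the STAT that is found in ISGF3, was the least abundant of the 8 genes, at 27 to 104 reads per library. It stood at 5.76 and 3.93 CPM in cGAS libraries, against 2.80 and 1.99 CPM in control libraries. Both cGAS libraries were above both control libraries, and the rise was 0.78 ± 0.25 (adjusted p = 0.033). The call was lost without control replicate 2 (0.60, adjusted p = 0.214) and without cGAS replicate 7 (0.55, adjusted p = 0.269), and its adjusted p ran from 0.0141 to 0.269 over the alternatives. In YT libraries STAT2 measured 3.91 and 3.34 CPM, above both control libraries but not called (0.45 ± 0.25, adjusted p = 0.168). The remaining groups measured 4.30 and 3.27 CPM in cGAS_YT, 2.83 and 2.29 CPM in STING_YT and 1.42 and 2.84 CPM in STING libraries. The doubly treated groups overlapped with their cGAS and STING counterparts.

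IRF7 (chromosome 11, 612553 to 615999, minus strand), the interferon-induced factor that amplifies interferon production, was highest where cGAS siRNAs were used. It stood at 30.3 and 30.2 CPM in cGAS libraries, against 9.50 and 9.72 CPM in control libraries, and the rise of 1.56 ± 0.22 was the largest of the 8 genes in this comparison (adjusted p = 6.4e-05). In cGAS_YT libraries it measured 40.2 and 24.3 CPM, on both sides of the cGAS libraries, with no call against them (0.05 ± 0.22, adjusted p = 0.902). The 2 cGAS_YT libraries also stood apart in interferon target genes, and replicate 9 was the higher in each: MX1 had 780 and 246 CPM, ISG15 533 and 240 CPM, and USP18 37.8 and 21.5 CPM in replicates 9 and 10. The part of that spread in the IRF7 result was not tested. IRF7 rose with the YAP and TAZ siRNAs alone, at 19.0 and 14.7 CPM in YT libraries, by 0.74 ± 0.22 (adjusted p = 0.0128). This call was lost without control replicate 1 (0.72, adjusted p = 0.0609), without control replicate 2 (0.75, adjusted p = 0.0575) and without YT replicate 3 (0.56, adjusted p = 0.0601), in a range of 0.0029 to 0.0609. STING libraries had 6.93 and 10.2 CPM, which overlapped with control (-0.17 ± 0.22, adjusted p = 0.669). STING_YT libraries had 10.8 and 14.8 CPM, above both STING libraries, but the difference of 0.53 ± 0.22 was not called (adjusted p = 0.0653). It was called without STING replicate 14 (0.78, adjusted p = 0.0321), without STING_YT replicate 15 (0.74, adjusted p = 0.0484) and in a fit of the 2 groups alone (adjusted p = 0.0206), with a range of 0.0206 to 0.455. Relative to the YT group, cGAS_YT was higher by 0.87 ± 0.22 (adjusted p = 0.00459), a call lost without cGAS_YT replicate 9 (0.52, adjusted p = 0.11; range 0.000298 to 0.11).

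IRF1 (chromosome 5, 132481609 to 132490798, minus strand), the factor that binds interferon response elements after interferon gamma and NF-kB signals, separated the 6 groups most cleanly. The libraries of no pair of neighbouring groups overlapped in the order of means, which was YT, STING_YT, control, cGAS_YT, cGAS and STING. It stood at 333 and 377 CPM in the YT libraries, against 138 and 140 CPM in control libraries, a rise of 1.34 ± 0.08 (adjusted p = 2.17e-09). In STING_YT libraries IRF1 measured 151 and 160 CPM, against 76.8 and 73.7 CPM in STING libraries (1.04 ± 0.08, adjusted p = 5.06e-08). In cGAS_YT libraries it measured 132 and 128 CPM, against 96.3 and 94.4 CPM in cGAS libraries (0.44 ± 0.08, adjusted p = 0.000701). The YAP and TAZ siRNAs thus raised IRF1 in each of the 3 backgrounds. The cGAS siRNAs alone lowered it (-0.54 ± 0.08, adjusted p = 0.000135), and the STING siRNAs alone lowered it further (-0.88 ± 0.08, adjusted p = 2.68e-06). Each of these 5 calls held under every alternative tried. C5orf56, on the other strand over the 3' end of IRF1, was also higher in YT than in control, at 95.3 against 46.4 CPM (1.02 ± 0.10, adjusted p = 5.31e-07), and lower in STING, at 31.4 CPM (-0.55 ± 0.10, adjusted p = 0.00128). In the cGAS group C5orf56 stood at 55.6 CPM, not called and in the other direction from IRF1 (0.25 ± 0.10, adjusted p = 0.0725). The strand setting of the counting is not given in the sources used here, so reads of the pair cannot be told apart.

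SOCS1 (chromosome 16, 11254405 to 11256200, minus strand), the inhibitor that binds the JAK kinases, moved differently from the other genes and was highest where the YAP and TAZ siRNAs were combined with others. It stood at 23.7 and 22.8 CPM in cGAS_YT libraries, against 13.1 and 12.4 CPM in cGAS libraries, a rise of 0.82 ± 0.21 (adjusted p = 0.00823). That call was lost without cGAS replicate 8 (0.78, adjusted p = 0.0624; range 0.000319 to 0.0624). In STING_YT libraries it measured 25.2 and 24.3 CPM, against 16.1 and 17.9 CPM in STING libraries. Here the groups did not overlap either, but the difference of 0.52 ± 0.21 was not called (adjusted p = 0.062). It was called with a pseudocount of 4 (adjusted p = 0.0434), with DESeq2 (0.0448) and in a fit of the 2 groups alone (0.000717), in a range of 0.000717 to 0.246. With the YAP and TAZ siRNAs alone, SOCS1 had 12.2 and 6.17 CPM in YT libraries, against 15.7 and 11.9 CPM in control libraries. YT replicate 3 lay within the control range and replicate 4 below it, and the decrease was -0.60 ± 0.21 (adjusted p = 0.0333). This decrease rested on single libraries: it was -0.16 without YT replicate 4 (adjusted p = 0.496) and -0.41 without control replicate 1 (adjusted p = 0.244). It was also lost with a constant prior variance (adjusted p = 0.0768) and in a fit of the 2 groups alone (0.139), and the range was 3.69e-05 to 0.496. RMI2, on the other strand over the 3' end of SOCS1, was lower in YT as well, at 2.59 CPM against 10.1 CPM in control (-1.64 ± 0.17, adjusted p = 1.13e-06). In cGAS_YT against cGAS it was not called (6.58 and 9.02 CPM, -0.40 ± 0.17, adjusted p = 0.0917), so it did not rise there with SOCS1. RMI2 was called in the direction of SOCS1 in cGAS_YT against YT (1.08 ± 0.17, adjusted p = 9.56e-05) and STING_YT against YT (2.24 ± 0.17, 5.43e-08). The same held in the interactions described below, for the cGAS siRNAs (1.23 ± 0.24, 0.00248) and the STING siRNAs (1.26 ± 0.24, 0.00333). With the strand setting not given, reads of RMI2 and SOCS1 cannot be told apart.

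IRF1 and SOCS1 are shown with the bases before their start sites because matches to response elements were found there. These were a gamma-activated site in IRF1, an ISRE in SOCS1 and, in both, a kappaB element, which NF-kB binds. The windows are the 250 bases upstream of the RefSeq start site (GRCh38.p14), written along the gene's own strand, with matches in capitals.
IRF1, chr5:132490774-132491023, minus strand: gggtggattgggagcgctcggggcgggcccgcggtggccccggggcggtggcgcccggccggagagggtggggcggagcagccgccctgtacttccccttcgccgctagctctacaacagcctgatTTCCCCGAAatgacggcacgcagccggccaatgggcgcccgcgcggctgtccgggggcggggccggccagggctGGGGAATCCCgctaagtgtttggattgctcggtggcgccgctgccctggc
SOCS1, chr16:11256205-11256454, minus strand: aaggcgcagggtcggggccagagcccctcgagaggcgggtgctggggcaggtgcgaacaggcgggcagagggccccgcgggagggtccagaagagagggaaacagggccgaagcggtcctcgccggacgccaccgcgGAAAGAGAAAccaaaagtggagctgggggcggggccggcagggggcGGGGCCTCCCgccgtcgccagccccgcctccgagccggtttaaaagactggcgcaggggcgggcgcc
In IRF1 the capitals mark a gamma-activated site (GAS, searched as TTCNNNGAA, the form bound by STAT dimers) that begins 124 bases before the start, and a kappaB match that begins 50 bases before it. In SOCS1 they mark an ISRE match (searched as a pair of GAAA half-sites with any 2 bases between them), which begins 113 bases before the start, and a kappaB match at 67 bases. Both strands were searched, and the matches do not overlap each other. Of 35116 promoter windows of the same length, 3.02% held the ISRE, 6.57% the GAS and 9.96% the kappaB consensus, so such matches occur in many other promoters. Of the 8 genes 6 have an entry in the RefSeq promoter table, with 9 start sites, and the windows of STAT2, JAK1, TYK2 and IFNAR1 held none of these letters. A match is a description of the letters and says nothing of binding in these cells.

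**Figure D2:**
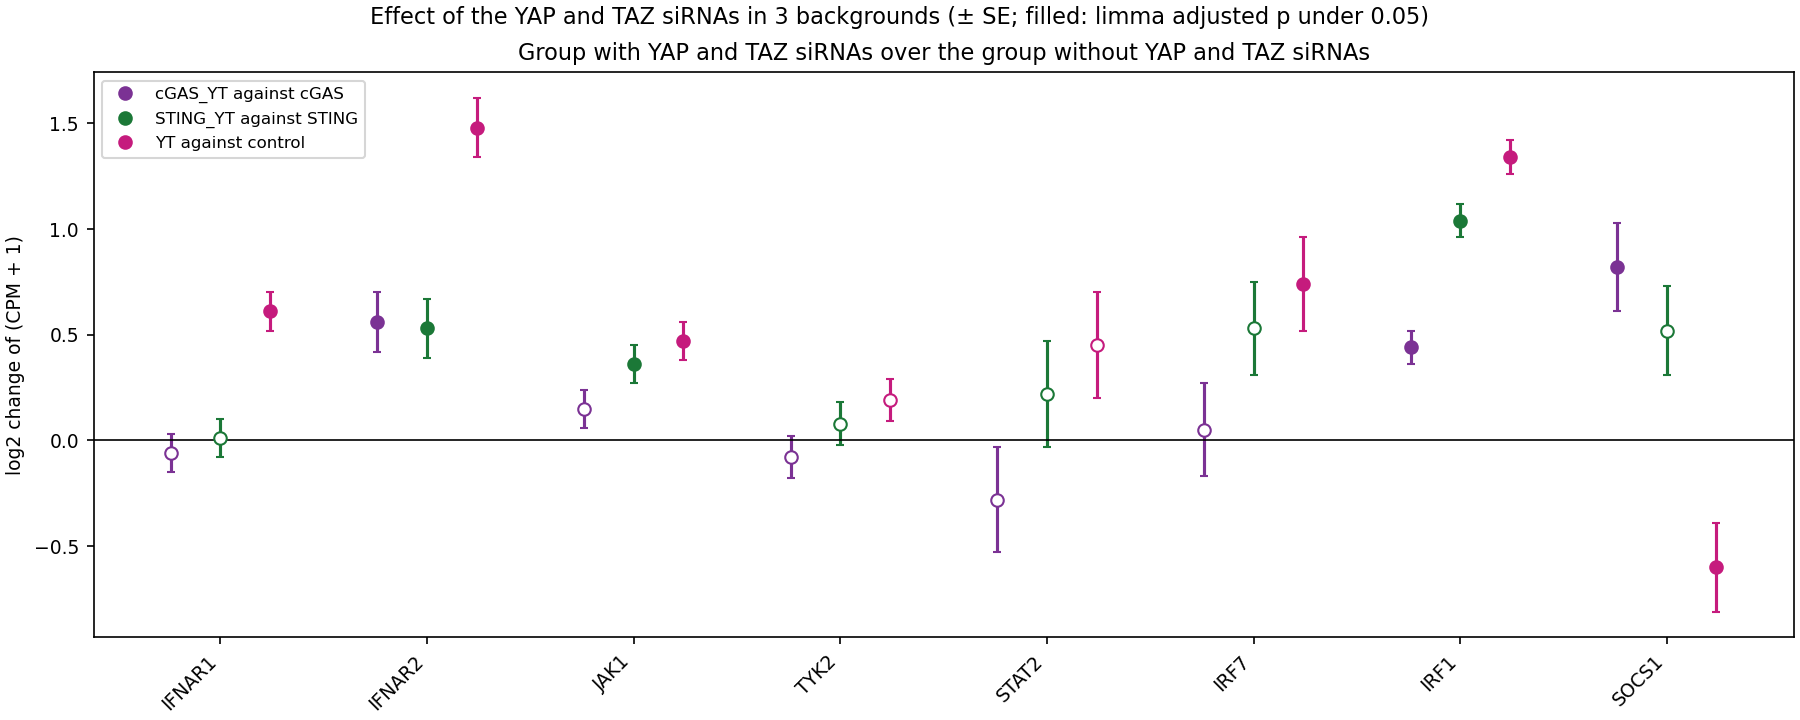
Log2 change of (CPM + 1) with the YAP and TAZ siRNAs in cells that also received cGAS siRNAs, STING siRNAs or the control siRNA, for the 8 genes (points, ± SE, filled where the limma adjusted p was under 0.05). For IFNAR1 and IFNAR2 the YT against control point lies above both others, at 0.61 and 1.48, and for SOCS1 it lies below 0, at -0.60, with both others above 0.

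The effect of the YAP and TAZ siRNAs was also measured beside a second siRNA. In cGAS_YT against cGAS, IRF1, IFNAR2 and SOCS1 rose and none of the 8 fell, 3 called against 27.7% of all genes (15% higher and 12.7% lower), with a median change of 0.10. In STING_YT against STING, IRF1, JAK1 and IFNAR2 rose and none fell, 3 called against 38.9% of all genes (19.1% higher and 19.8% lower), with a median of 0.44. Without STING_YT replicate 16 the count was 1, and in a fit of the 2 groups alone it was 5. With both directions counted, the share of the 8 genes called was near that of all genes in STING_YT against STING. In both comparisons each call among the 8 was a rise, and smaller shares of all genes rose, 15% and 19.1%. Whether the 8 genes differ from all genes in this was not tested.

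Whether these responses differed between backgrounds was tested as an interaction, the change with YAP and TAZ siRNAs in the presence of the second siRNA minus the change with the control siRNA. These tests share the YT and control libraries with the YT comparison. For the cGAS siRNAs 4 of 8 genes were called, 3 negative and 1 positive, against 13.4% of all genes (7.50% positive and 5.93% negative). The rise with the YAP and TAZ siRNAs was smaller beside the cGAS siRNAs for IRF1 (-0.90 ± 0.12, adjusted p = 5.23e-05), IFNAR1 (-0.67 ± 0.13, adjusted p = 0.00207) and IFNAR2 (-0.92 ± 0.19, adjusted p = 0.00405). For SOCS1 the interaction was positive (1.42 ± 0.30, adjusted p = 0.00442). These 4 calls held under every alternative. YAP1 averaged 23.1 CPM in cGAS_YT and 14.6 CPM in YT, and WWTR1 18.3 and 19.8 CPM. The part of these levels in the interactions was not tested. IRF7 (-0.69 ± 0.31, adjusted p = 0.162), STAT2 (-0.73 ± 0.36, adjusted p = 0.202) and JAK1 (-0.32 ± 0.12, adjusted p = 0.0982) were not called. IRF7 was called without cGAS_YT replicate 9 (-1.04, adjusted p = 0.0369; range 0.0369 to 0.548) and JAK1 without YT replicate 4 (-0.41, adjusted p = 0.0134; range 0.0134 to 0.262).

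For the STING siRNAs 3 of 8 interactions were called, 2 negative and 1 positive, against 7.88% of all genes (3.35% positive and 4.53% negative), and 1 was called without STING replicate 13. The 3 were those of IFNAR2 (-0.94 ± 0.19, adjusted p = 0.00517), IFNAR1 (-0.61 ± 0.13, adjusted p = 0.00688) and SOCS1 (1.12 ± 0.30, adjusted p = 0.0302). IRF1, whose rise with the YAP and TAZ siRNAs was 1.04 beside the STING siRNAs and 1.34 with the control siRNA, gave no call here (-0.31 ± 0.12, adjusted p = 0.127), except without YT replicate 3 (-0.40, adjusted p = 0.0126; range 0.0126 to 0.354). IFNAR1 lost its call without STING replicate 13 (-0.52, adjusted p = 0.0606; range 0.00096 to 0.0606). The SOCS1 call was lost without control replicate 1 (0.93), YT replicate 4 (0.68), STING replicate 13 (1.05) or 14 (1.19), STING_YT replicate 15 (1.09) or 16 (1.14), with a constant prior variance and in a fit of the 4 groups alone, and its adjusted p ranged from 2.73e-05 to 0.135. Among the 8 libraries, the call held only when YT replicate 3 (1.56) or control replicate 2 (1.30) was left out.

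Seen from the YT group, the second siRNA lowered both receptor chains. In cGAS_YT against YT, 2 of the 8 genes rose and 4 fell, 6 called against 40.7% of all genes (20.5% higher and 20.2% lower). The changes were -1.44 ± 0.08 for IRF1 (adjusted p = 9.63e-10), -1.0 ± 0.09 for IFNAR1 (2.57e-07), -0.99 ± 0.14 for IFNAR2 (2.26e-05) and -0.48 ± 0.09 for JAK1 (0.00029). IRF7, described above, was higher, and SOCS1 was higher by 1.32 ± 0.21 (0.000115). In STING_YT against YT, 1 rose and 4 fell, 5 called against 34.1% of all genes (16% higher and 18.0% lower). The fall of IFNAR2 was the largest of the 8 there (-1.66 ± 0.14, adjusted p = 1.13e-07), followed by IRF1 (-1.18 ± 0.08, 1.68e-08), IFNAR1 (-0.77 ± 0.09, 7.34e-06) and JAK1 (-0.49 ± 0.09, 0.000365), and SOCS1 rose by 1.40 ± 0.21 (8.41e-05). The YT libraries, which these comparisons share with the one above, differed more from each other than any other pair of replicates, with 249 genes more than 2-fold apart.

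**Figure D3:**
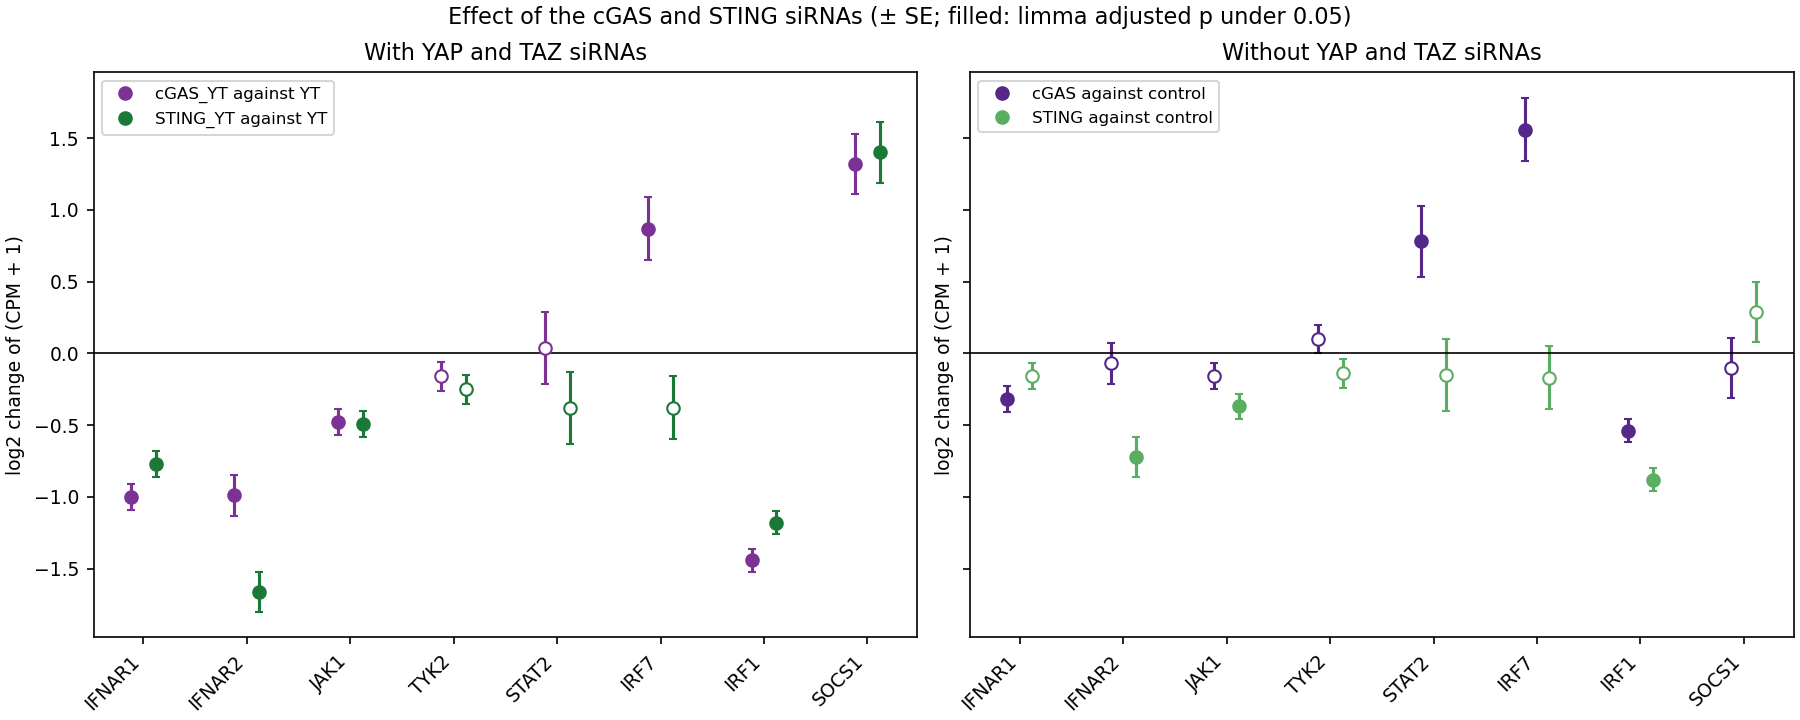
Log2 change of (CPM + 1) with the cGAS or STING siRNAs for the 8 genes, in the presence (left) and absence (right) of YAP and TAZ siRNAs (points, ± SE, filled where the limma adjusted p was under 0.05). IFNAR1, IFNAR2, JAK1 and IRF1 lie below 0 and SOCS1 above 0 on the left for both siRNAs, and IRF7 lies at 1.56 for the cGAS siRNAs on the right, against -0.17 for the STING siRNAs.

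The cGAS and STING siRNAs were also compared with each other. In cGAS against STING, 4 genes were higher and none lower, 4 of 8 called against 33.6% of all genes (16% higher and 17.6% lower). IRF7 differed most (1.73 ± 0.22, adjusted p = 1.58e-05), and the IRF7 values of the 2 groups, about 30 CPM in each cGAS library and at most 10.2 CPM in a STING library, did not overlap. STAT2 was higher by 0.92 ± 0.25 (adjusted p = 0.0101), IFNAR2 by 0.65 ± 0.14 (0.00154) and IRF1 by 0.34 ± 0.08 (0.00431). The STAT2 call was lost without cGAS replicate 7 (0.69, adjusted p = 0.126) and without STING replicate 13 (0.59, adjusted p = 0.169; range 0.0029 to 0.169). In a fit of the 2 groups alone JAK1 (0.21, adjusted p = 0.00255), TYK2 and SOCS1 (-0.39, adjusted p = 0.0199) were called as well. With all groups in the fit those of JAK1 and SOCS1 were 0.0696 and 0.174.

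Around these genes, the rest of the pathway was read from lists of receptors, kinases, STATs, IRFs and inhibitors. Over all genes, the shares called were 20.6% (up) and 20.9% (down) for YT, 11.1% and 14.3% for cGAS, and 6.14% and 8.86% for STING, each set against control. Of 5 other STAT genes, 3 rose and none fell in YT against control, and none rose and 2 fell in cGAS against control (1 fell without cGAS replicate 8). Both counts of 0 were also 0 with edgeR, with DESeq2 and at an unadjusted p under 0.05 in limma. STAT3 (chromosome 17, 42313324 to 42388568, minus strand), the STAT of IL-6 family cytokines, fell to 38.2 and 34.9 CPM in cGAS libraries, against 161 and 172 CPM in control libraries (-2.16 ± 0.09, adjusted p = 1.23e-10). It was as low in cGAS_YT libraries, at 40.0 and 40.4 CPM, against 215 and 249 CPM in YT libraries, and it was not called in STING against control (-0.12). Among the kinases, JAK3, which serves receptors with the common gamma chain and is named here after its values were seen, had 5.76 and 5.51 CPM in YT libraries, against 1.35 and 0.909 CPM in control libraries (1.65 ± 0.20, adjusted p = 7.24e-06), while JAK2 was not called (0.25). STAT6, the STAT of interleukin-4, rose in YT against control (121 and 77.3 CPM, 0.64 ± 0.09, adjusted p = 1.92e-05).

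Of 3 other receptor chains, IFNGR2 and IL10RB rose in YT against control (1 without control replicate 1). The other, IFNGR1, named here after its values were seen, was not called (-0.17 ± 0.34, adjusted p = 0.721), with 28.5 and 7.67 CPM in YT libraries on both sides of the 15.5 and 18.7 CPM in control libraries. The YT libraries decided its direction: it was lower without YT replicate 3 (-1.05, adjusted p = 1.85e-05) and higher without YT replicate 4 (0.71, adjusted p = 0.00111; range 1.85e-05 to 0.955). IFNGR2, the second chain of the interferon gamma receptor, measured 97.5 and 96.3 CPM in YT libraries, against 62.9 and 79.1 CPM in control libraries (0.45 ± 0.11, adjusted p = 0.00297). That rise was lost without control replicate 1 (0.29, adjusted p = 0.0602; range 0.00092 to 0.0602). In STING libraries it had 39.3 and 39.6 CPM, below every control library (-0.82 ± 0.11, adjusted p = 7.31e-05). Its interactions were negative for the cGAS siRNAs (-0.77 ± 0.15, adjusted p = 0.00259) and for the STING siRNAs (-0.51 ± 0.15, adjusted p = 0.0496). The STING interaction, close to the threshold, was lost in 9 of 17 alternatives, among them leaving out control replicate 1 (-0.35, adjusted p = 0.201; range 0.0143 to 0.201) or any STING or STING_YT library (-0.46 to -0.56). Of 4 other IRF genes and IRF partners, 3 rose and 1 fell in YT against control, and none was called with the cGAS or STING siRNAs alone by limma, edgeR or DESeq2 (1 at an unadjusted p under 0.05 in limma in each). In cGAS, IRF2BPL (-0.21, adjusted p = 0.0606) passed the threshold with a minimum of 5 CPM (0.0491) and in a fit of the 2 groups alone (0.0236; range 0.0236 to 0.284). IRF2, which competes with IRF1 for its sites, rose by 0.60 ± 0.11 (adjusted p = 0.000271), IRF3, which acts after STING, by 0.53 ± 0.16 (adjusted p = 0.0133), and the partner gene IRF2BPL by 0.71 ± 0.08 (adjusted p = 2.02e-06), while IRF2BP2, a corepressor that binds IRF2, fell (-0.75 ± 0.10, adjusted p = 2.71e-05). The IRF3 call was lost without control replicate 2 (0.41, adjusted p = 0.122), without YT replicate 3 (0.44, adjusted p = 0.0571) and in a fit of the 2 groups alone (0.0579; range 0.00929 to 0.122).

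Of 15 other inhibitors of JAK-STAT signalling, 5 rose and none fell in YT against control, and 1 rose and 4 fell in cGAS against control. Over all genes 20.6% rose in YT and 14.3% fell in cGAS. These counts rested on single libraries. In YT, 1 rose without control replicate 1, 3 without control replicate 2 and 2 without YT replicate 3, and in cGAS 1 to 2 fell without any 1 of the 4 libraries. SOCS3, the closest in function to SOCS1, had 66.5 CPM in YT and 48.3 CPM in control (0.43 ± 0.14, adjusted p = 0.0249) and 32.1 CPM in the cGAS group (-0.57 ± 0.14, adjusted p = 0.008), so its direction was opposite to that of SOCS1 in YT. The SOCS3 rise in YT lost its call without YT replicate 3 (0.17), control replicate 1 (0.44) or control replicate 2 (0.42). It was also lost with a constant prior variance (adjusted p = 0.0736) and in a fit of the 2 groups alone (0.0806). The fall of SOCS3 in cGAS lost its call without cGAS replicate 8 (-0.55). USP18, which is induced by interferon and blocks IFNAR2, rose to 32.6 CPM in the cGAS group, against 7.56 CPM in control (1.97 ± 0.23, adjusted p = 1.08e-05). SOCS6 was lower in cGAS_YT than in cGAS (11.3 and 27.7 CPM, -1.22 ± 0.12, adjusted p = 2.07e-06).

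**Figure D4:**
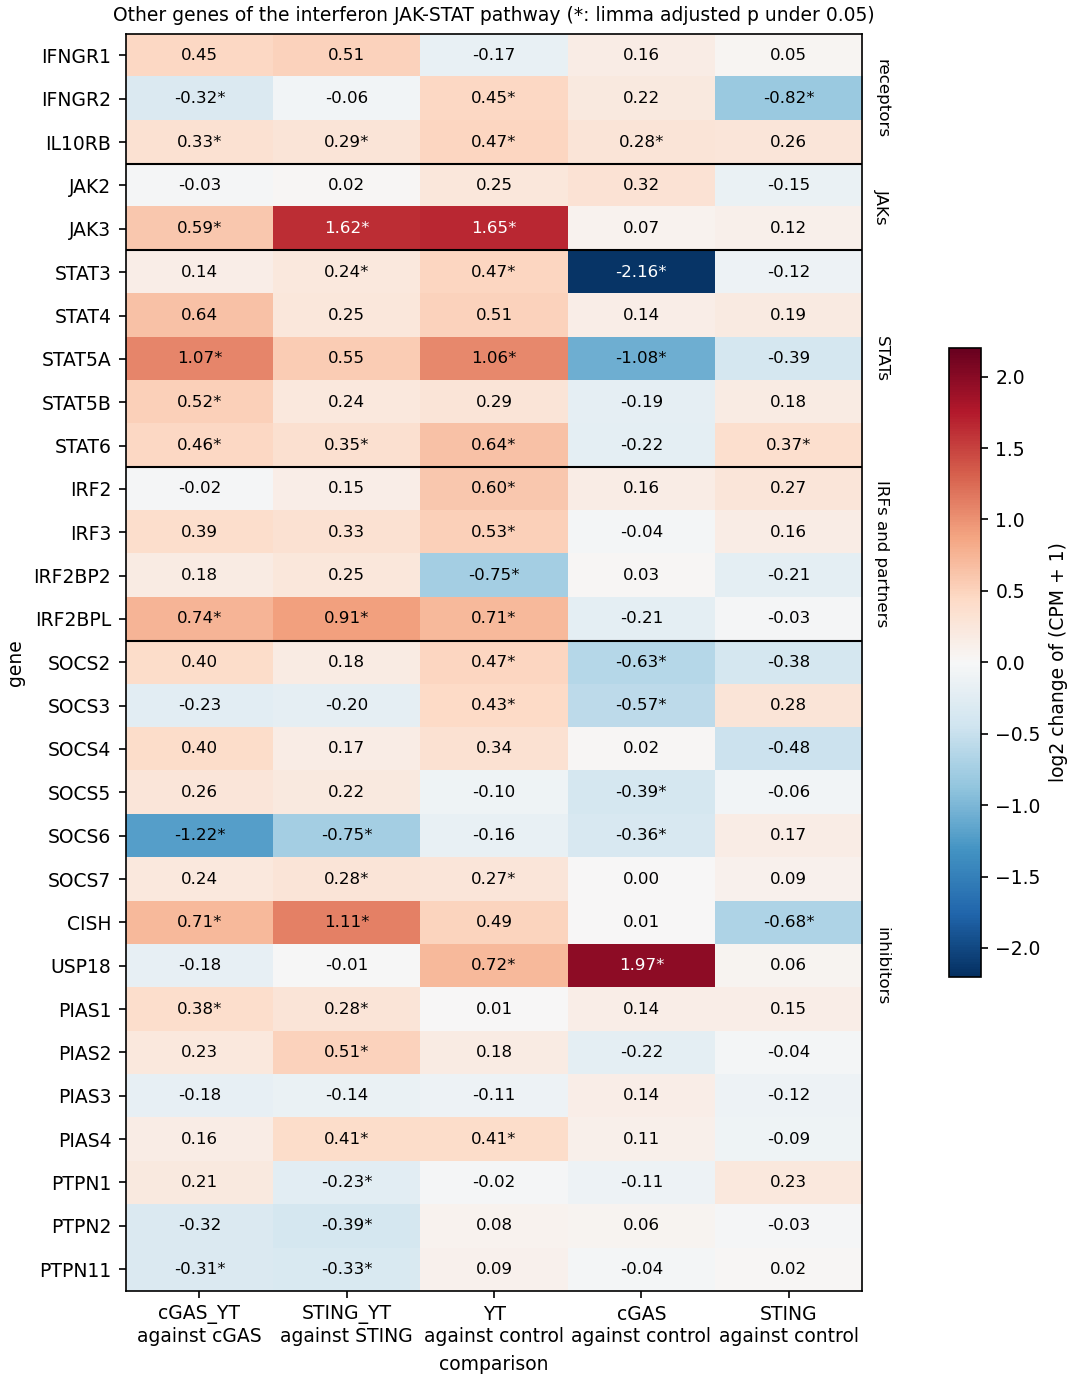
Log2 change of (CPM + 1) of the other pathway genes (rows, grouped as receptors, JAK kinases, STATs, IRFs and partners, and inhibitors) in 5 comparisons (columns), with an asterisk where the limma adjusted p was under 0.05. USP18 stands at 1.97 and STAT3 at -2.16 in cGAS against control, and SOCS6 at -1.22 in cGAS_YT against cGAS.

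The genes that ISGF3 and IRF1 act on were counted as well, from lists that earlier results on these data had already shown to move. Of 30 type I interferon target genes, 17 rose and none fell in YT against control (median 0.70), 30 rose in cGAS against control (median 3.13) and 3 rose in STING against control (median 0.28). The shares of all genes that rose were 20.6% in YT, 11.1% in cGAS and 6.14% in STING. Without control replicate 1 or 2 the count in YT was 9 or 8, with a constant prior variance 8 and with a pseudocount of 4 it was 11. PARP9 was called lower in YT without YT replicate 3 (-0.53, adjusted p = 0.0449; -0.20 and 0.521 with all libraries, range 0.0449 to 0.784). In STING the count was 5 without STING replicate 13, 5 with DESeq2 and 7 in a fit of the 2 groups alone. All 30 were called in cGAS against control under each alternative. IFIT1 and MX1 show the spread: IFIT1 had 8.55 CPM in YT and 12.3 CPM in control (-0.47 ± 0.30, adjusted p = 0.22), while MX1 had 38.1 CPM in YT and 11.4 CPM in control (1.65 ± 0.41, adjusted p = 0.00422). Both were far higher in the cGAS group, at 196 CPM for IFIT1 and 542 CPM for MX1. Of 14 interferon gamma and IRF1 target genes, 8 rose and none fell in YT against control, 9 rose and 1 fell in cGAS against control, and 4 fell in STING against control (2 without control replicate 2 or either STING replicate), where 8.86% of all genes fell. CXCL10, a chemokine for T cells, averaged 40.6 CPM in YT and 2.30 CPM in control (3.66 ± 0.41, adjusted p = 2.82e-06), with a negative interaction for the cGAS siRNAs (-3.25 ± 0.59, adjusted p = 0.00127) and for the STING siRNAs (-2.33 ± 0.59, adjusted p = 0.0208). That STING interaction was lost without control replicate 1 (-2.17), STING replicate 14 (-1.96) or either STING_YT replicate (-2.22 and -2.45). It was also lost with a pseudocount of 0.25 (adjusted p = 0.0752), a constant prior variance (0.102), edgeR (0.181) and DESeq2 (0.225). GBP1, a guanylate-binding protein, had 365 CPM in the cGAS group, against 252 CPM in control (0.54 ± 0.13, adjusted p = 0.00647). In the STING group it had 185 CPM (-0.44 ± 0.13, adjusted p = 0.0312). Its rise in cGAS missed the threshold without control replicate 1 (0.50, adjusted p = 0.0504) and without cGAS replicate 8 (0.52, adjusted p = 0.0506; range 7.92e-07 to 0.0506). Its fall in STING was lost when any of the 4 libraries was left out (adjusted p = 0.107 to 0.15) and with a constant prior variance (0.124; range 0.000505 to 0.15). The interferon ligand genes are not analysed here.

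The genes whose profile over the 12 libraries was most like that of each member were sought among 10251 genes (10252 for STAT2) averaging 5 CPM or more, by Pearson's r on log2(CPM + 1). The libraries form 6 groups of replicates, so r describes mainly the 6 group means and carries no test. For IFNAR1 the nearest was RELB (0.978), for IFNAR2 CLUHP3 (0.979), for JAK1 RGS3 (0.972), for IRF1 TBC1D16 (0.989) and for SOCS1 TMEM43 (0.956). IRF7 had HLA-C (0.982), SAMD9L (0.976) and PARP12 (0.969) nearest. STAT2 had PARP14 (0.892), SYNJ2 (0.892) and F2RL1 (0.886) nearest, the lowest of these values. TYK2 was left out of this search because its group means differed by less than 1.5-fold.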

How the data were processed

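Total RNA of 12 libraries was prepared with a 3' end kit (QuantSeq), per the labels' protocols. Per the submitters' processing notes the tools were edgeR, featureCounts and STAR 2.5.3a, with build hg38. Their parameters, annotation and strand setting are not given in the sources. Each signal value in the deposited table is a CPM that the authors scaled with TMM factors, as the values themselves show. Every value was a whole multiple of the worth of 1 read within 0.01 reads (100%), which gave back whole reads. The scale had been entered as plain CPM in the design, and the test planned for it was kept.

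From these values log2(CPM + 1) was tested with limma 3.58.1 in R 4.3.3 (intensity trend), in 1 fit of all 12 libraries in 6 groups, with 6 residual and 10.1 prior degrees of freedom, on 13894 of 13937 genes with at least 1 CPM in 2 libraries. The 8 members with a row passed that filter. Benjamini-Hochberg adjustment was made within each of 10 contrasts. Libraries were grouped by title, and every replicate number occurs once. No pair of replicates agreed within counting noise (chi-square per degree of freedom 3.78 to 26.8). Genes at 0 could be present at up to 3 reads, which covers counting error only.

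As alternatives, the pseudocount was set to 0.25 or 4, the filter was dropped or set to 5 CPM, values were rescaled by the median of ratios, the prior variance was held constant, the fit was limited to the groups of a contrast, each library was left out in turn, and genes were tested with edgeR 4.0.16 and DESeq2 1.42.0 on the recovered reads. Those for other named genes and list counts were added after seeing the data. For YT against control edgeR called 5659 genes and DESeq2 5491, beside 5773 with limma.

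Of the table's symbols 12571 (90.2%) are in GENCODE release 29 (GRCh38), which gave positions and overlaps. Promoter windows are from RefSeq (GRCh38.p14), searched with Python 3.11.15. The scripts were tested on simulated counts. Members and lists were chosen with earlier results of these data known. Named genes were the members, the 4 targeted genes, IFIT1, MX1, ISG15, GBP1 and USP18, up to 4 called genes of each list and contrast by smallest p that averaged 5 CPM or more, and the 3 most alike genes per member; the text gives a selection. The overlapping genes C5orf56, RMI2, RAVER2 and AP000295.1 were named for their position. Another gene of the pathway is not reported here.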

Additional observations from a re-analysis of the deposited data

Results flagged for a closer look

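The response to the YAP and TAZ siRNAs differed with the second siRNA for 4 of the 8 genes, by limma's interaction test with Benjamini-Hochberg adjustment over 13894 genes. Beside the cGAS siRNAs 4 were called, against 13.4% of all genes, and beside the STING siRNAs 3, against 7.88%. Beside the cGAS siRNAs the interaction was -0.90 for IRF1, where the YT change was 0.44 with cGAS siRNAs and 1.34 with the control siRNA. It was -0.67 for IFNAR1 (-0.06 with cGAS siRNAs and 0.61 with the control siRNA), -0.92 for IFNAR2 (0.56 with cGAS siRNAs and 1.48 with the control siRNA) and 1.42 for SOCS1 (0.82 with cGAS siRNAs and -0.60 with the control siRNA). Beside the STING siRNAs it was -0.61 for IFNAR1 (0.01 with STING siRNAs), -0.94 for IFNAR2 (0.53 with STING siRNAs) and 1.12 for SOCS1 (0.52 with STING siRNAs). All 7 tests use the same 2 YT and 2 control libraries. The part of the YAP1 level, 23.1 CPM in cGAS_YT and 14.6 CPM in YT on average, was not tested. YT replicate 4 holds the lowest SOCS1 value of all, 6.17 CPM, and without it the SOCS1 interactions were 0.98 for the cGAS and 0.68 for the STING siRNAs. RMI2, which lies over the 3' end of SOCS1, had positive interactions as well (1.23 for the cGAS and 1.26 for the STING siRNAs).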

How the results depend on the processing

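Over all genes 7.88% to 41.6% were called, depending on the comparison. Of 80 changes tested in the 8 genes, 41 were called. Of these, 29 were called under every alternative, and 12 lost the call under at least 1, as given beside each result. Of the 39 not called, 9 were called under at least 1 alternative. No called change turned its direction. Reversals among the 8 genes were seen only in uncalled changes. IFNAR1 in STING_YT against STING was -0.002 after median-of-ratios rescaling and -0.004 with DESeq2. With 1 library left out at a time, ranges that crossed 0 were -0.08 to 0.09 for that same change, -0.29 to 0.09 for SOCS1 and -0.17 to 0.02 for IFNAR2 in cGAS against control, -0.42 to 0.08 for IRF7 and -0.48 to 0.19 for STAT2 in STING against control (0.03 without control replicate 1), -0.31 to 0.40 for IRF7 in cGAS_YT against cGAS, -0.12 to 0.55 for STAT2 and -0.02 to 0.17 for TYK2 in STING_YT against STING, and -0.11 to 0.20 for STAT2 in cGAS_YT against YT (-0.05 without YT replicate 4). In the STING interaction they were -0.45 to 0.04 for IRF7 (0.01 without STING_YT replicate 15) and -0.57 to 0.10 for STAT2.

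Outside the 8 genes, IFNGR1 in YT against control was 0.08 with edgeR, 0.09 with DESeq2 and -1.05 to 0.71 with a library left out, and PARP9 there ran from -0.53 to 0.13 (without YT replicate 4) with a library left out. A fit of only the groups compared called 3784 genes in YT against control (5773 with all groups), 5 members in STING_YT against STING (3) and 7 in cGAS against STING (4). It called fewer genes than the fit of all groups in the 5 comparisons that include the YT libraries, whose replicates differed most from each other. It called more in the other 5, among them cGAS against control (4461 and 3528) and STING_YT against STING (6986 and 5405). A constant prior variance called 703 genes in the STING interaction (1095). The cause of these shifts was not tested. With a library left out, the members called were 4 to 5 in YT against control, 2 to 3 in cGAS against control, STING against control and cGAS_YT against cGAS, 1 to 4 in STING_YT against STING and in the STING interaction, 5 to 6 in cGAS_YT against YT and STING_YT against YT, 3 to 4 in cGAS against STING and 4 to 5 in the cGAS interaction. The genes called were 4237 to 6034, 2050 to 2741, 879 to 1317 and 2258 to 3092 in the first 4 of these, 3674 to 4083 in STING_YT against STING, 4167 to 6107 in cGAS_YT against YT, 3015 to 5315 in STING_YT against YT, 2971 to 3342 in cGAS against STING, 1111 to 3270 in the cGAS interaction and 550 to 2555 in the STING interaction. A group left with a lone sample is assumed to vary like the others. STAT2 was not tested under the 5 CPM minimum, and its 27 to 104 reads per library give it the lowest counting precision of the 8. No paired analysis was possible because each replicate number occurs in 1 library only.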
